A study of Mus musculus with 2 samples.

Results

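Mir191 and Mir425 are a pair of microRNA genes that lie close together on mouse chromosome 9, and their reads were followed in the small RNA of gastrocnemius, the large calf muscle. The members were the 2 rows, of 2202 microRNA genes in each count table, whose Ensembl identifier carries the symbol Mir191 (ENSMUSG00000105497.1) or Mir425 (ENSMUSG00000065579.1) in the GENCODE vM21 annotation. No measured value was used to choose them, although the pair was proposed with results of these data known. The samples were 1 group of 2 biological replicates, each with 1 library of RNA under 30 nt, from 14-day-old male mice of the strain B6CASTF1/J, an F1 hybrid of the C57BL/6 and CAST/EiJ strains. The labels name no treatment and no genotype beyond the strain. They give both libraries the same donor identifier and speak of several males, so a replicate may be an animal or a pool, and the spread between the libraries may be partly technical. There was no second condition, and every comparison below is between genes or between these 2 libraries.

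A microRNA is cut from a hairpin in a longer transcript, and either arm of the hairpin can give the mature strand that guides Argonaute proteins to matching messenger RNAs. Bases 2 to 8 of the mature strand, the seed, carry most of the target choice, so microRNAs with the same seed can share targets. Genes that lie close together on the same strand are often transcribed together, yet each hairpin is processed separately and the mature products can accumulate to different levels. miR-191 and miR-425 are found in many tissues, and miR-191 is often used as a reference in PCR measurements of microRNAs. In humans, miR-425 is known to repress the messenger RNA of atrial natriuretic peptide. The pair is usually placed in the gene Dalrd3, whose product takes part in the methylation of arginine transfer RNAs.

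The sequences are shown because they decide which reads can be counted for each gene and which other microRNAs share a seed with it. RefSeq entries on GRCm38.p6 were found for 2 of 2 members, with 4 mature strands, and the hairpin coordinates were the same as in GENCODE. In the mature strands, given 5′ to 3′, the capitals mark the seed.
mmu-miR-191-5p: cAACGGAAucccaaaagcagcug
mmu-miR-191-3p: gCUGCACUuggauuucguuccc
mmu-miR-425-5p: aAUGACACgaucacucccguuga
mmu-miR-425-3p: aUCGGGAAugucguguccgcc
mmu-miR-489-3p: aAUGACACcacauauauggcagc
In the hairpins, also 5′ to 3′ and on the plus strand, the capitals mark the 2 mature arms.
Mir191: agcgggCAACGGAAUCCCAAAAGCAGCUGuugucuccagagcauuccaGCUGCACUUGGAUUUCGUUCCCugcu
Mir425: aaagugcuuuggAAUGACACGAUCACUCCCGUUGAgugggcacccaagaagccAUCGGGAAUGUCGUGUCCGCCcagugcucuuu

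The 4 mature strands have 4 different seeds, so neither gene shares a seed with the other. Among the 1738 mature mouse sequences in the RefSeq table, the seeds of miR-191-5p, miR-191-3p and miR-425-3p occurred once each. The seed of miR-425-5p occurred in 1 other sequence, miR-489-3p, which is printed with the pair for that reason. No other mature sequence in the table lay within 6 edits of a strand of the pair: the smallest distance was 8 edits for miR-191-5p, 7 for miR-191-3p, 8 for miR-425-5p and 7 for miR-425-3p. None of the 18-base windows of the 4 strands occurred, on either strand, in a transcript of a gene away from the locus among 141767 GENCODE transcripts. A read that mapped to several loci is in no gene's count, and such reads were 44.0% of the total in replicate 1 and 52.1% of it in replicate 2. The search covered transcripts and not the whole genome, so it does not give the number of such reads from this pair. The counts are per hairpin and do not separate the 5p from the 3p strand.

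The annotation does not place the pair inside Dalrd3 in the version used for the counts. Mir191 lies at chr9:108568319-108568392 and Mir425 at chr9:108568777-108568861 on mm10 (GRCm38), both on the plus strand, with 384 bases between them. In GENCODE vM21, Dalrd3 spans chr9:108569886-108572774 on the same strand and begins 1024 bases after the end of Mir425. The gene that holds the pair there is the long noncoding RNA gene 4833445I07Rik (chr9:108567533-108569174). Its longer transcript is a single exon of 1642 bases that covers both hairpins. Its shorter transcript has 2 exons, with Mir191 in the intron between them, and its last base lies 3 bases before the first base of Mir425. In the RefSeq annotation of the same build, Dalrd3 spans chr9:108567484-108572773, a start 2402 bases further upstream, and both hairpins lie within the gene. The RefSeq table used here gives gene spans and no exons, so it does not say whether they lie in an intron. The statement that the pair is intronic in Dalrd3 therefore did not hold in GENCODE vM21.

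**Figure D1:**
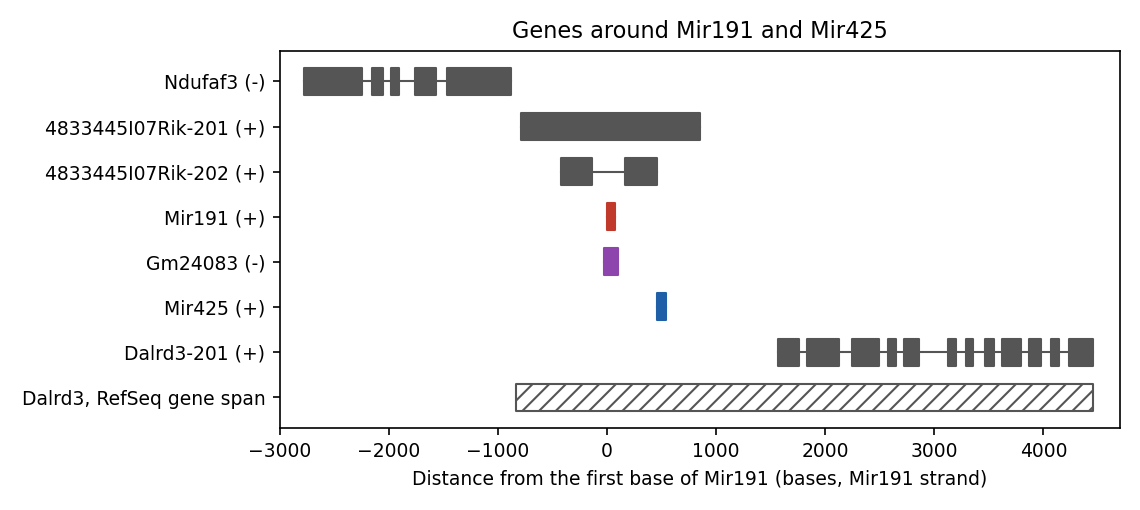
Genes around the pair, by distance in bases from the first base of Mir191 on its strand; boxes are GENCODE vM21 exons, lines are introns and the hatched box is the span of Dalrd3 in RefSeq. Both hairpins lie within the longer transcript of 4833445I07Rik, upstream of Dalrd3 in GENCODE and inside it in RefSeq, and Gm24083 covers Mir191 on the opposite strand.

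The third microRNA gene annotated at the locus is Gm24083 (ENSMUSG00000092915.1, chr9:108568295-108568414). It lies on the minus strand and covers Mir191 with 24 bases to spare on its left and 22 on its right, while Mir425 has no partner on the other strand. The deposited counts are given for reads on the gene's own strand, on the opposite strand and on either strand. On its own strand, Mir191 had 14322 reads in replicate 1 and 12267 in replicate 2. Gm24083 had the same 14322 and 12267 reads in the opposite-strand column and 0 reads on its own strand in both libraries. Levels are given as CPM, the count scaled to a total of 1000000 counts assigned to genes, and a count of 0 leaves room for 1.09 CPM in replicate 1 and 1.36 CPM in replicate 2. Every read counted at the locus was thus on the strand of Mir191.

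With either strand counted, Mir191 and Gm24083 both had 0 reads in both libraries. The tables' class of ambiguous reads held 647240 reads in replicate 1 and 508345 in replicate 2 in that column, and 0 in the own-strand column. The own-strand reads of Mir191 equalled 2.21% of that class in replicate 1 and 2.41% of it in replicate 2. Mir425 kept the same number of reads in the own-strand and either-strand columns, 1914 in replicate 1 and 1283 in replicate 2, and had 0 on the opposite strand. Mir191 was the 3rd most abundant of the 64 genes in the table with a microRNA gene on the opposite strand. Of those 64 genes, 35 had a read on their own strand, and 33 of the 35 had none with either strand counted. All further values are from the own-strand counts.

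**Figure D2:**
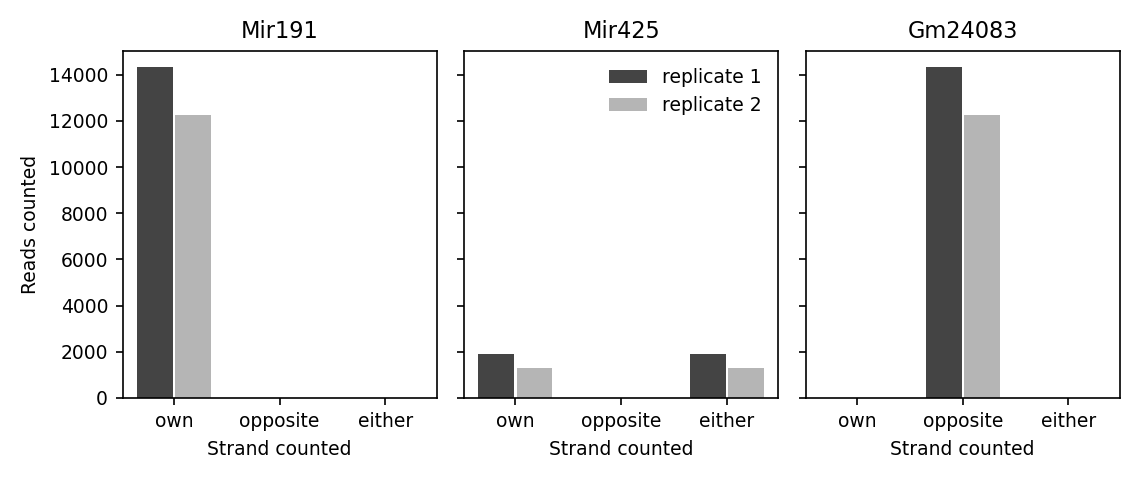
Reads counted for Mir191, Mir425 and Gm24083 by strand column, with a bar for each library and a linear axis from 0. Mir191 holds 14322 and 12267 reads on its own strand and 0 with either strand counted, Gm24083 holds the same numbers as opposite-strand reads, and Mir425 keeps 1914 and 1283 in both columns.

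Both members were detected in both libraries, Mir191 among the abundant microRNAs of the muscle and Mir425 at a middle level. Mir191 reached 5220 CPM in the first replicate and 5548 CPM in the other, a mean of 5384 CPM ± 232 (SD, n = 2). Its share of the counts assigned to a gene was 0.522% in replicate 1, with a 95% Wilson interval of 0.514 to 0.531, and 0.555% in replicate 2, with an interval of 0.545 to 0.565. It ranked 33rd of all genes in replicate 1 and 30th in replicate 2, and 32nd by mean CPM. Ranks are by counted reads, so genes whose reads mapped to several loci can rank too low. The libraries lay close together for this gene, with a coefficient of variation of 4.30%.

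Mir425 reached 698 CPM in the first replicate and 580 CPM in the other, a mean of 639 CPM ± 83.0 (SD, n = 2). Its share was 0.0698% in replicate 1, with an interval of 0.0667 to 0.0730, and 0.0580% in replicate 2, with an interval of 0.0549 to 0.0613. It ranked 89th in replicate 1, 96th in replicate 2 and 91st by mean CPM. Its coefficient of variation was 13.0%, and the Wilson intervals of the libraries did not overlap for either member. The intervals cover counting error only and take each read as independent. PCR copies are not independent molecules, so the intervals can be too narrow.

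The pair passed the minimum of 10 CPM in both libraries, as did 258 of the 629 genes that had any count. Among those 258 genes the median was 260 CPM, so both members stood above it. Mir191 was at or above 88.0% of them and Mir425 at or above 65.1%. The most abundant gene, Mir378a, stood at 117291 CPM ± 8973 (SD, n = 2), and Mir191 reached 4.59% and Mir425 0.545% of that level. Together the pair held 0.592% of assigned counts in replicate 1 and 0.613% in replicate 2, a mean of 0.602% ± 0.0149 (SD, n = 2). CPM counts whole short reads, so no scaling by gene length applies to these levels.

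**Figure D3:**
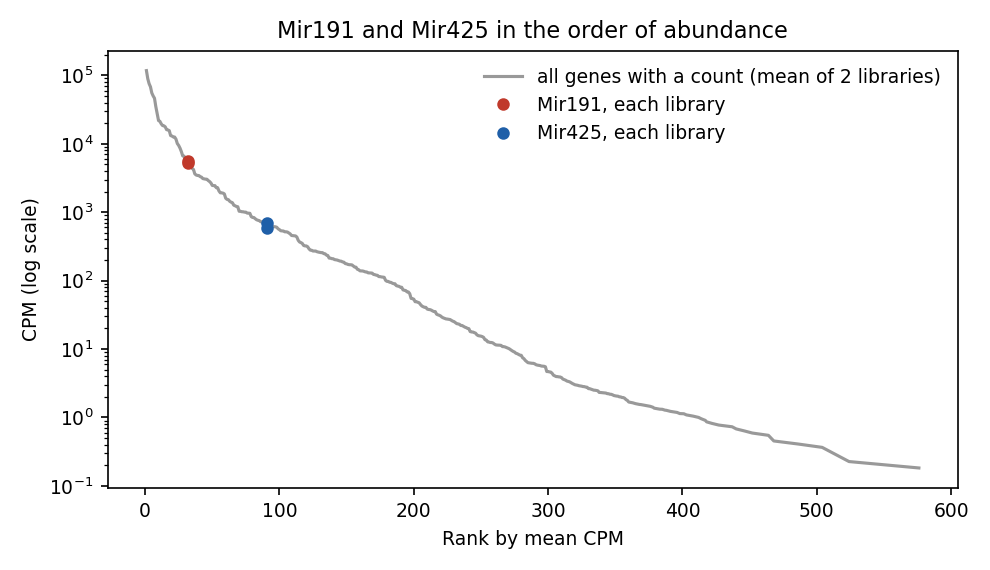
CPM on a log scale against rank by mean CPM; the grey line gives the mean of 2 libraries for every gene with a count, and coloured points give each library for Mir191 and Mir425. Mir191 lies at 5220 and 5548 CPM at rank 32, and Mir425 at 698 and 580 CPM at rank 91.

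The genes next to Mir191 in the order of mean CPM were Mir196b, from a Hox cluster, at 5827 CPM ± 685 (SD, n = 2) and Mir100, of the miR-99/100 family, at 5798 CPM ± 367 above it. Below it were Mir27b, of a miR-23/27/24 cluster, at 4750 CPM ± 687 and Mir299a, of the imprinted Dlk1-Dio3 region, at 4567 CPM ± 481. The ranges over the libraries of Mir196b, Mir100 and Mir27b overlapped that of Mir191, so their order was not resolved. The range of Mir299a, 4227 to 4907 CPM, lay below that of Mir191. Around Mir425, the ranges of all 4 neighbours overlapped its own. These were Mir16-1 (753 and 619 CPM) and Mir872 (676 CPM ± 37.2) above it and Mir485 (634 CPM ± 30.4) and Mir181d (630 CPM ± 24.7) below it.

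By Euclidean distance on log2(CPM + 1) over the 2 libraries, the genes most like Mir191 were Mir100 (distance 0.215), Mir196b (0.279), Mir27b (0.379), Mir299a (0.402) and Mir744 (0.432). The genes most like Mir425 were Mir27a (distance 0.0691), Mir181c (0.108), Mir485 (0.119), Mir497 (0.139) and Mir16-1 (0.144). These genes were picked by their CPM in the same 2 libraries, so a shared direction between the libraries is partly built into the choice. With 2 libraries the distance mostly reflects the level.

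Mir191 outnumbered Mir425 in both libraries, and by different amounts. There were 7.48 reads of Mir191 for each read of Mir425 in replicate 1 (95% exact interval 7.13 to 7.85) and 9.56 in replicate 2 (9.03 to 10.1). The mean ratio was 8.52 ± 1.47 (SD, n = 2). Mir425 made up 11.8% of the pair's reads in replicate 1 and 9.47% in replicate 2. The ratio was 1.28 times as high in replicate 2 (95% interval 1.19 to 1.38), a difference larger than counting error (two-sided Fisher's exact test, p = 1.10e-10). This ratio needs no scaling of library sizes, and its test compares these libraries and no conditions. These are ratios of reads and not of molecules, and the yield of each sequence in library preparation was not measured.

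In counted reads, a ratio of this size between close microRNA genes was not unusual. There were 47 pairs of adjacent same-strand genes within 1000 bases of each other with both genes at 10 CPM in both libraries, formed from 80 genes, some of which are in 2 pairs. Their median ratio of the higher to the lower gene was 5.09, and it was 8.46 for Mir191 and Mir425 (geometric mean over the libraries), with 15 pairs wider and 31 narrower. Mir23b stood at 5.81 times Mir27b, Mir411 at 12.1 times Mir299a and Mir487b at 5.85 times Mir381. Mir337 and Mir540 (1.13), Mirlet7f-2 and Mir98 (1.25) and Mirlet7e and Mir125a (1.33) were closer to equal. Those 6 are the pairs with the most abundant lower gene. The pairs were not screened for genes that lose reads through multiple mapping, and such losses can widen or narrow a ratio. The 15 wider pairs may include such genes, so the place of Mir191 and Mir425 among the 47 holds for counted reads only.

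The change of the ratio between the libraries was also within the range of the other pairs. For 24 of the 47 pairs (51.1%) the ratio differed by more than counting error (two-sided Fisher's exact test with Benjamini-Hochberg adjustment over the pairs, adjusted p = 4.71e-10 for Mir191 and Mir425). The change in the log2 ratio was 0.35 for Mir191 and Mir425 against a median absolute change of 0.22, and 15 pairs changed more. The log2 ratio of Mir23b to Mir27b changed by 0.45 and that of Mir411 to Mir299a by −0.014. The test over all pairs was added after the values of the pair had been seen. It too used counted reads, without a screen for multiple mapping.

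**Figure D4:**
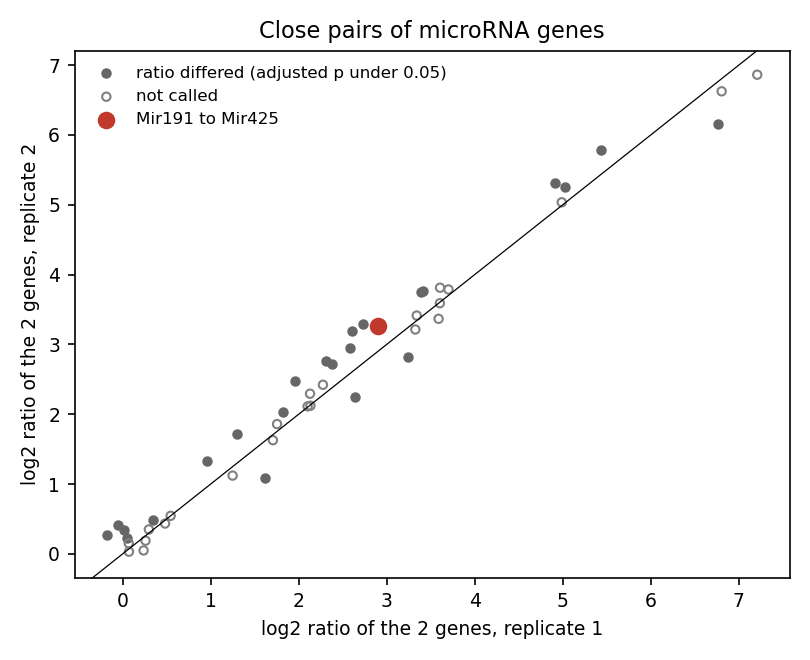
The log2 ratio of the reads of 2 adjacent same-strand microRNA genes in replicate 1 (x axis) and replicate 2 (y axis), for the 47 pairs within 1000 bases, each oriented so that its mean is positive; the line marks equal ratios. Mir191 to Mir425 lies above the line, at 2.90 in replicate 1 and 3.26 in replicate 2, among other filled points for which the ratio differed.

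The members were then compared between the libraries one at a time, with library sizes scaled by the trimmed mean of M-values (TMM). Each gene's counts were tested with a two-sided exact binomial test, adjusted by the method of Benjamini and Hochberg over all 258 genes. Of those genes 131 (50.8%) differed by more than counting error at an adjusted p under 0.05, with 49 (19.0%) above and 82 (31.8%) below their replicate 1 level in replicate 2. Scaling by total counts in place of TMM gave 67 above and 66 below. Both members were among the 131, in opposite directions, and a call shared by 50.8% of all genes says little about either of them.

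Mir425, at 1914 counts in replicate 1 and 1283 in replicate 2, was lower in replicate 2, by a log2 ratio of −0.31 (95% exact interval −0.42 to −0.21; exact binomial test, adjusted p = 7.34e-09). The difference was larger than that of 189 of the 258 genes, whose median absolute log2 ratio was 0.18. Among the 54 genes within 2-fold of its level, 41 differed less, and 33 of the 54 passed the same test. With library sizes from total counts its log2 ratio was −0.27.

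Mir191, at 14322 and 12267 counts, had a log2 ratio of 0.041 (95% exact interval 0.0062 to 0.076; exact binomial test, adjusted p = 0.0408), which is 1.03 times as high in replicate 2. With TMM sizes, 32 of the 258 genes differed less between the libraries. Of the 24 genes within 2-fold of its level 4 differed less, their median absolute log2 ratio was 0.17, and 20 of the 24 (83.3%) passed the same test. The call did not hold under every scaling. With DESeq2 size factors the log2 ratio was 0.028 (exact binomial test, adjusted p = 0.187). With library sizes from total counts it was 0.088 (exact binomial test, adjusted p = 2.71e-06). Over these scalings of the assigned counts the direction was the same and the size ran from 0.028 to 0.088. Per mapped read (14322 of 7457049 in replicate 1, 12267 of 6696915 in replicate 2) Mir191 was lower in replicate 2, which was not tested. In muscle tissue as a whole, fewer cells of a type and less RNA per cell cannot be told apart, and this holds for both members.

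**Figure D5:**
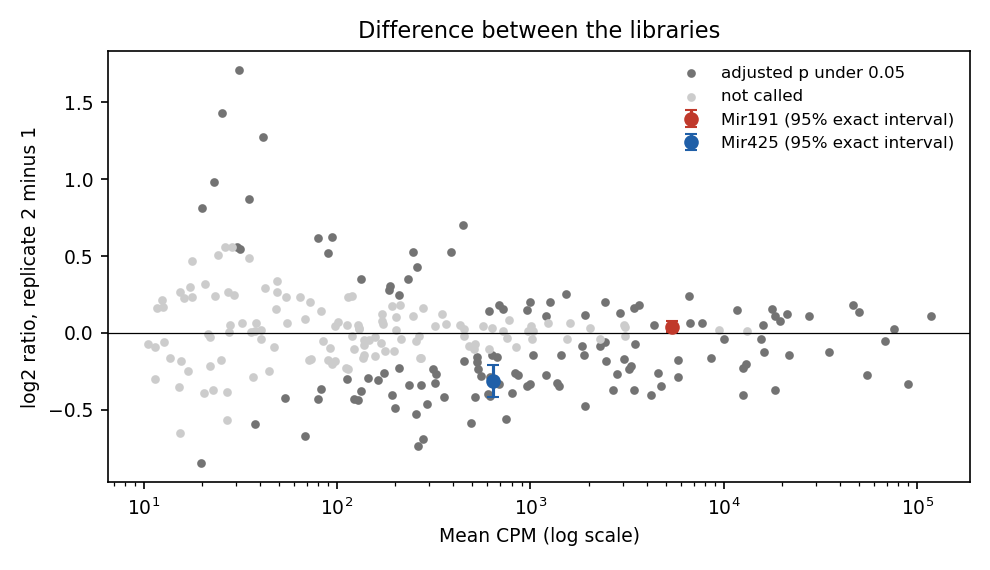
The log2 ratio of replicate 2 to replicate 1 with TMM sizes against mean CPM on a log scale, for the 258 genes at 10 CPM in both libraries; bars on the members are 95% exact intervals for counting error. Mir191 lies near 0 at 0.041 and Mir425 below it at −0.31, within the cloud of other genes.

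Mir489, whose 3p strand has the seed of miR-425-5p, lies at chr6:3721897-3722003 in an intron of Calcr, the calcitonin receptor gene. miR-489 is known from the quiescent satellite cells of muscle. Mir489 had 7 counts in replicate 1 and 3 in replicate 2, which is 2.55 and 1.36 CPM. Mir425 had 273 times as many reads in replicate 1 (95% exact interval 132 to 681) and 428 times in replicate 2 (146 to 2077). At this depth nearly all counts of the 2 genes with a strand of this seed came from Mir425, over both of its arms.

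Mir191 was also set beside other microRNAs commonly used as PCR references. The list held 26 genes without Mir191 and Mir425, of which 25 were found by symbol, 25 were counted at least once and 23 passed the minimum of 10 CPM. Of those 23, 8 were higher and 6 lower in replicate 2 and 9 were not called. Among all 258 genes 19.0% were higher and 31.8% lower, which is 50.8% called. The most abundant were Mir23a (21316 CPM ± 1742, SD, n = 2), Mirlet7d (19583 CPM ± 1176), Mir26b (18297 CPM ± 1423), Mir22 (12977 CPM ± 980), Mir151 (4357 CPM ± 208) and Mir30e (3430 CPM ± 539). In counted reads, Mir191 stood below 4 and Mir425 below 12 members of the list. The list was not screened for genes that lose reads through multiple mapping, and such genes can stand too low. With TMM sizes, the absolute log2 ratio between the libraries was smaller than that of Mir191 for 2 of the 23 members. It was smaller than that of Mir425 for 17. The list's median log2 ratio was 0.0045, and it was −0.0082 with DESeq2 size factors and −0.037 for all 258 genes with TMM. Mir30e (−0.37) and Mir22 (−0.20) were lower in replicate 2, and Mir23a (0.12), Mir26b (0.11), Mirlet7d (0.076) and Mir151 (0.051) were higher.

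The microRNA genes in an intron of a protein-coding gene on the same strand numbered 741 in GENCODE vM21, and neither member is among them in that annotation. Of these, 272 were counted at least once and 89 passed the minimum of 10 CPM, with a median of 192 CPM. In counted reads, without a screen for multiple mapping, Mir191 was below 9 and Mir425 below 30 of the 741. Between the libraries 19 of the 89 were higher and 18 lower in replicate 2 and 52 were not called, against 19.0% higher and 31.8% lower among all 258 genes. Their median log2 ratio was 0.012.

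The labelled tissue was checked against marker microRNAs. The 9 skeletal muscle markers all had counts and their CPM summed to 69535 in the first library and 69214 in the other, of which Mir206 alone gave 68288 and 67909 CPM. The heart marker Mir208a summed to 2.55 and 0 CPM and the liver marker Mir122 to 108 and 132 CPM. The red blood cell markers Mir451a and Mir144 summed to 384 and 571 CPM and the 4 leukocyte markers to 977 and 1048 CPM. The endothelial Mir126a was at 98087 and 80432 CPM, and the smooth muscle markers Mir143 and Mir145a summed to 36704 and 34921 CPM. Of 7 neuronal markers 2 had a count, with Mir124a-1, Mir124a-2, Mir124a-3, Mir9-1 and Mir9-2 at 0 in both libraries. The 7 summed to 14.2 and 48.4 CPM, of which Mir137 gave 14.2 and 47.9 CPM. The marker lists were not screened for genes that lose reads through multiple mapping, so the sums can be too low, that of skeletal muscle included. They therefore do not rank the cell types against each other. A 0 can reflect such losses too, so it does not show that a microRNA was absent. The endothelial and smooth muscle sums were lower in replicate 2 and the red blood cell, leukocyte, liver and neuronal sums were higher. Skeletal muscle sums were nearly equal, and within that list Mir499 was lower (338 and 217 CPM) and Mir133b higher (20.8 and 31.7 CPM). The heart marker was too close to 0 to compare. The part of these markers in the differences of Mir191 and Mir425 was not tested.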

How the data were processed

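Small RNA reads had been counted per microRNA gene in 2 gastrocnemius libraries. The deposited values are raw read counts, not normalized, in columns for either strand, the own strand and the opposite strand, on mm10 per the labels, with annotation M21 named in the notes the authors deposited. The aligner, the counter and the trimming are not given in the sources used here. The 4 lines that name no gene stayed out of totals and tests; they held 72.7% of the reads in replicate 1 and 73.0% in replicate 2. Replicate 1 had 2743657 own-strand counts from 10056843 reads and replicate 2 had 2211254 from 8189059, and a count of 0 allows up to 3 counts.

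CPM was computed over all gene rows. TMM sizes came from all genes (edgeR 4.0.16 in R 4.3.3) and alternative sizes from DESeq2 1.42.0. Genes at 10 CPM in both libraries were tested with an exact binomial test and pairs with Fisher's exact test (scipy 1.17.1), both with Benjamini-Hochberg adjustment over all genes or pairs; the test over all pairs was added after seeing the data. These tests cover counting error only, with each read taken as independent. edgeR's model tests need a second group. The binomial test was checked on simulated counts with counting error only and total-count library sizes. That check covers neither further variation between libraries nor TMM sizes. Hairpins were folded with RNAfold 2.7.2. Sequences are from RefSeq (GRCm38.p6), in which 968 of the 2202 genes had a hairpin by symbol.

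The members and lists were chosen with earlier results of these data known. Genes named were the members, the 5 nearest to each by level in both libraries, the 2 next above and below, the 6 most abundant reference genes and pairs, the most abundant gene and genes sharing a seed. Alternatives were other scalings, minimums, denominators and strand columns, and leaving out each replicate.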

Additional observations from a re-analysis of the deposited data

How the results depend on the processing

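The levels depend on the denominator and the strand column. Mir191 was at 1876 counts per 1000000 mapped reads, 6101 CPM without the most abundant gene in the total and 0 CPM with either strand counted, and Mir425 at 224, 723 and 833. The ratio of Mir191 to Mir425 was 0 with either strand counted, since Mir191 had 0 reads in that column. These 0 values are not estimates of its level or of the ratio. With 1 replicate left out, Mir191 ranged from 5220 to 5548 CPM, Mir425 from 580 to 698 CPM and their ratio from 7.48 to 9.56. The log2 ratio of Mir191 between the libraries was no longer called with DESeq2 size factors (0.028), with every gene that had a count tested (0.041, exact binomial test, adjusted p = 0.0887; more genes are tested) and without the most abundant gene (0.039, exact binomial test, adjusted p = 0.0604), and its adjusted p ran from 2.71e-06 to 0.187 over its 6 alternatives in the exact binomial test. Mir425 was called lower in replicate 2 under its 7 alternatives. Counts of called genes ran from 114 to 134, but the number tested changed too. They were 114 of 178 genes at 100 CPM and 129 of 629 with every gene that had a count. The median log2 ratio of the reference list was 0.051 with total counts, −0.0082 with DESeq2 size factors, 0.013 at 100 CPM, 0.051 with either strand counted and 0.034 with TMM over the tested genes. That of the intron list was 0.059, −0.00044 and −0.025 for the first 3 of these, 0.049 with every gene that had a count and 0.041 with TMM over the tested genes. These alternatives for the lists, TMM over the tested genes, and the test of the pairs at either distance were chosen after seeing the data. Within 10000 bases, 41 of 76 pairs (53.9%) had a ratio that differed, against 24 of 47. With either strand counted Mir191 could not be tested. No paired analysis was possible because there is only 1 group. Depth limits Mir489, at 7 and 3 counts, more than the members.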

Other observations

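The predicted fold of the members' hairpins was computed with RNAfold as a description. The Mir191 hairpin of 74 bases had a minimum free energy of −35.0 kcal/mol with 17 base pairs between its mature arms, and the Mir425 hairpin of 85 bases had −31.7 kcal/mol with 14. Per base, Mir191 was predicted to be more stable than 77.4% and Mir425 than 35.6% of 997 distinct mouse hairpins in the RefSeq table. The bases between the mature arms numbered 19 and 18. The relation of these values to the read counts was not tested.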
